A study of Pantherophis guttatus with 6 samples.

Results

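The laminin, integrin, nidogen and perlecan genes of the basement membrane were examined in embryonic dorsal skin of the corn snake, *Pantherophis guttatus*, by RNA sequencing. The rule took every gene of the count table whose whole symbol is that of a laminin chain (LAMA, LAMB or LAMC with a number), an integrin α subunit (ITGA) or an integrin β subunit (ITGB), and added *NID1*, *NID2* and *HSPG2*. It found 36 genes among 25731, of which 11 are laminin chains, 14 integrin α subunits and 8 integrin β subunits. All 36 had enough counts to be among the 17025 genes tested. A gene with the whole symbol *LAMB1* was not analysed here, and 11 further rows that carry the name of one of these genes with the ending "-like" are described beside the 36, not counted among them.

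Skin of 3 homozygous hypomelanistic embryos was compared with skin of 3 wild-type embryos, all at embryonic day 40. Hypomelanistic snakes carry less melanin than wild-type snakes. By the study's methods, all embryos came from 1 clutch of parents that both carried a single copy of the hypomelanistic allele, so each library is 1 animal and the parental background is shared by both groups. The labels give neither the sex of the embryos nor a batch. Total counts lay between 29958657 and 38541392 per library. *TYR*, which encodes tyrosinase, the first enzyme of melanin synthesis, had 4.78, 5.13 and 5.01 CPM (counts per 1000000 counts of the normalized library) in the hypomelanistic embryos, against 42.6, 34.52 and 34.55 CPM in the wild-type embryos, which separates the libraries by their labels.

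A basement membrane is the thin sheet of matrix on which epidermis, vessel walls, muscle fibres and nerve sheaths rest. Laminins are built in the cell from 1 α, 1 β and 1 γ chain and polymerize into a network outside it. Nidogens link this network to that of type IV collagen, and perlecan, the heparan sulphate proteoglycan encoded by *HSPG2*, binds both and holds growth factors. Integrins are receptors of 1 α and 1 β subunit that span the cell membrane and tie the sheet to the cytoskeleton. In skin, the laminin with the *LAMA3* and *LAMB3* chains and the integrin made of the *ITGA6* and *ITGB4* subunits anchor basal keratinocytes in hemidesmosomes, while laminins with the *LAMA2* chain are known from muscle and peripheral nerve and those with *LAMA4* from vessels. Neural crest cells, from which pigment cells come, travel on laminin and fibronectin and use integrins to do so.

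Levels of different genes were compared as CPM per kilobase of exon. *ITGB1*, the β subunit that pairs with most α subunits, had the highest level at 116.7, 77.6 and 69.7 CPM per kilobase in hypomelanistic embryos 1, 2 and 3, against 78.4, 83.5 and 81.7 in wild-type embryos 1, 2 and 3. Even its lowest library lay above the highest library of *NID1*, the next gene, which averaged 38.4 CPM per kilobase over the 6 embryos. *LAMA4* (29.9), *LAMC1* (29.6), *ITGB4* (29.0) and *NID2* (28.6) followed in mean CPM per kilobase, and the ranges of these neighbours overlapped one another. *HSPG2* came next at 18.4 CPM per kilobase, with a range that met neither that of *NID2* above it nor, by a narrow margin, that of *ITGB5* below it.

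Below *HSPG2*, the neighbours named here overlapped in range with each other, except that the lowest library of *LAMA5* lay above the highest of *LAMB2*. *ITGB5* (14.8), *ITGA6* (14.5), *ITGA11* (14.3), *LAMA5* (14.2) and *LAMB2* (10.3) averaged above 10 CPM per kilobase over the 6 embryos, and *LAMB3* averaged 10.04. From *LAMB4* at 9.79 the means then went down through *LAMC3*, *ITGA5*, *ITGAV*, *ITGA8*, *LAMA3*, *ITGB6*, *ITGA7*, *ITGA1*, *LAMA2*, *ITGA3*, *ITGA4*, *LAMA1*, *ITGA2*, *ITGB8* and *ITGA9*, the last at 1.66 CPM per kilobase. The lowest 6 genes were *ITGA2B* (0.935), *ITGB7* (0.775), *ITGB2* (0.644), *ITGA10* (0.488), *ITGB3* (0.320) and *ITGAL* (0.277 CPM per kilobase). *ITGB2*, *ITGB7* and *ITGAL* encode integrin subunits of leucocytes, and *ITGA2B* and *ITGB3* make the fibrinogen receptor of platelets in mammals. Summed in CPM, not scaled by length, 6 leucocyte marker genes had 14.4, 12.1 and 10.02 in the hypomelanistic embryos, against 12.6, 16.4 and 15.003 in the wild-type embryos. Most of this sum was *CSF1R*, whose groups overlapped, and *RAC2*, whose groups did not. Their log2 fold changes, hypomelanistic over wild-type, were -0.54 and -0.27. Of the 5 markers tested, 2 were higher in hypomelanistic embryos. The part of leucocytes in the values of *ITGB2*, *ITGB7* and *ITGAL* was not tested.

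**Figure D1:**
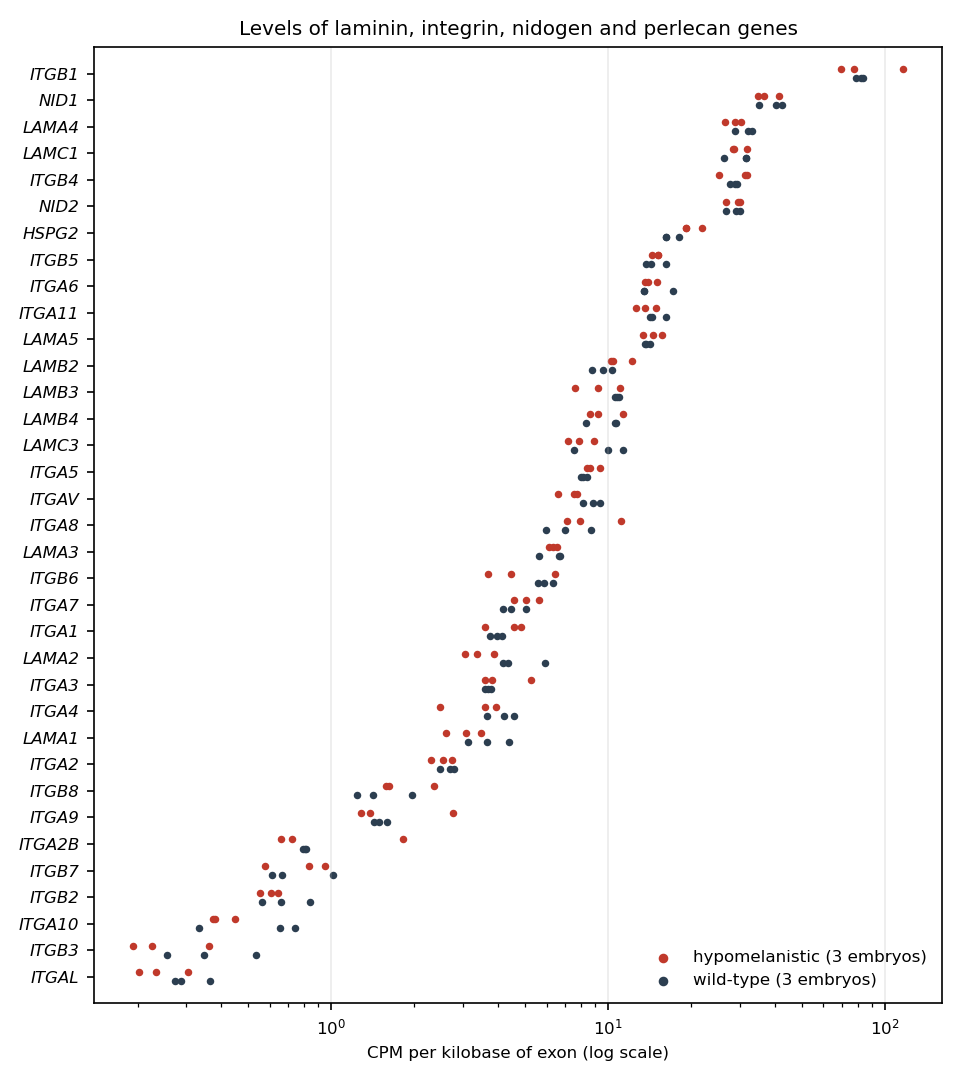
Level of 35 of the 36 genes in each embryo, in CPM per kilobase of exon on a log axis, with genes ordered by their mean over the 6 embryos. Red points are the 3 hypomelanistic embryos and dark points, drawn below them, the 3 wild-type embryos. *ITGB1* stands above all others, and 1 hypomelanistic embryo lies to the right of the other 5 libraries for *ITGB1*, *ITGA8*, *ITGA3*, *ITGB8*, *ITGA9* and *ITGA2B*.

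Summed over all 36 genes, the level was 439 ± 30.2 CPM per kilobase in hypomelanistic and 436 ± 12.3 in wild-type embryos (SD, n = 3 each). The 5 laminin α chains summed to 55.8 ± 1.82 CPM per kilobase in hypomelanistic and 60.03 ± 4.01 in wild-type embryos, with overlapping libraries. The 3 β chains summed to 29.97 ± 2.48 and 30.26 ± 2.20 CPM per kilobase in hypomelanistic and wild-type embryos. The β sum lacks *LAMB1*, the usual partner of *LAMC1*, and is therefore no measure of all β chains. Integrin α subunits summed to 75.7 ± 4.11 CPM per kilobase in hypomelanistic and 76.0 ± 3.04 in wild-type embryos. Integrin β subunits summed to 141 ± 28.01 in hypomelanistic and 134 ± 2.45 in wild-type embryos, and the wide spread of the hypomelanistic embryos came from *ITGB1* in hypomelanistic 1.

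None of the 36 genes differed between the genotypes by edgeR's quasi-likelihood test, with p-values adjusted by the Benjamini-Hochberg method over the whole table and a threshold of 0.05. The background is small: 4 of the 17025 genes passed (0.0235%), and *TYR* was one of them, with a log2 fold change of -2.90 ± 0.115 (SE). DESeq2, which called 85 of 17887 genes (0.475%), and limma-voom also called none of the 36. The edgeR adjusted p of the 36 lay between 0.828 and 1.00, and the smallest DESeq2 adjusted p was 0.387, for *LAMA2*. At an unadjusted p under 0.05, edgeR, DESeq2 and limma-voom each counted 3 of 36 genes. By edgeR this was 8.33% of the 36, with 1 gene higher and 2 lower in hypomelanistic embryos, beside 5.63% of all tested genes. The groups did not overlap for 4 of 36 genes (11.1%), of which 2 were higher and 2 lower in hypomelanistic embryos, beside 12.2% of all tested genes.

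The fold changes of the 36 genes, hypomelanistic over wild-type, lay between -0.54 and 0.41 on the log2 scale, with 17 genes above 0 and 19 below. Their median was -0.0049, beside 0.0038 over all tested genes. Their standard errors lay between 0.0708 and 0.380 with a median of 0.124, so the data bound most of the differences: the 95% interval of the fold change stayed within 1.5-fold either way for 22 genes and within 2-fold for 33. The 3 genes with wider intervals were *ITGA2B*, *ITGA10* and *ITGB3*, all near the bottom of the order of levels. In bulk tissue, fewer cells of a type and less RNA per cell cannot be told apart, which holds for each gene below.

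**Figure D2:**
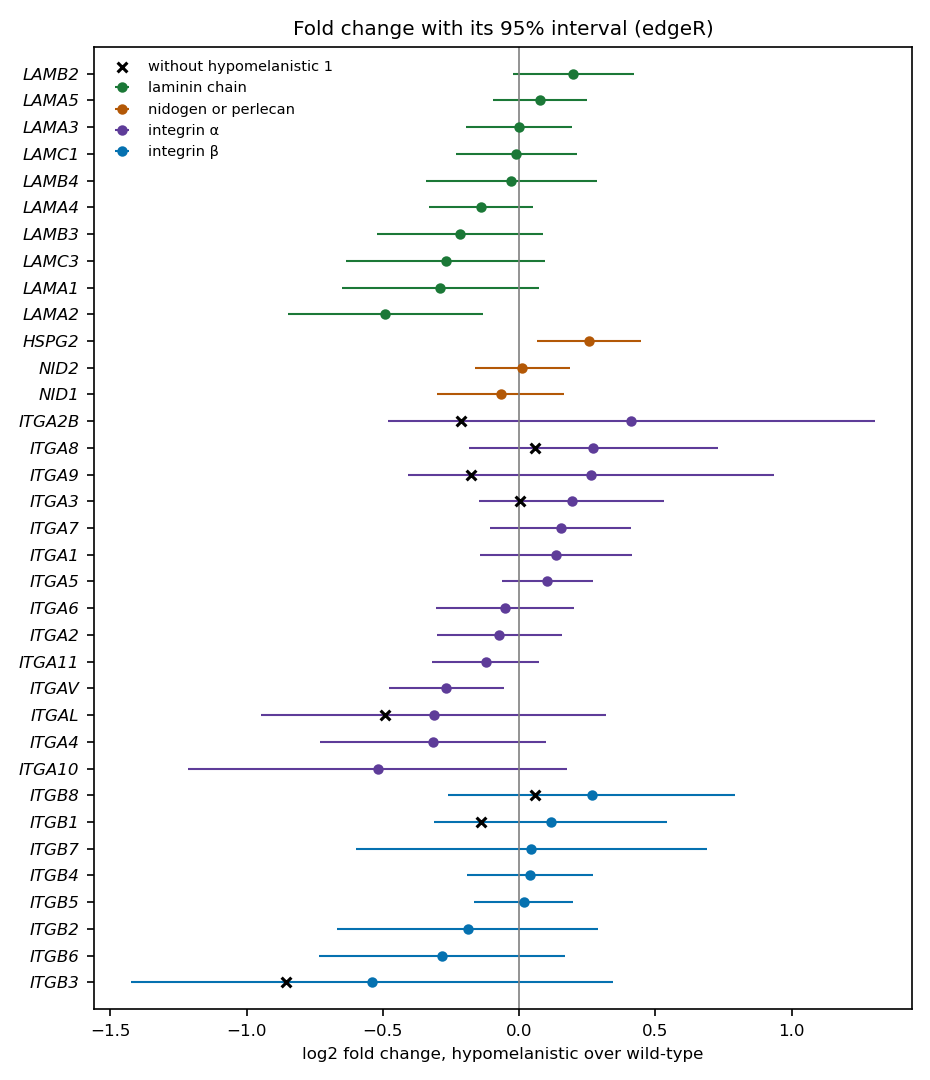
Log2 fold change of 35 of the 36 genes, hypomelanistic over wild-type, with its 95% interval from edgeR, grouped by family. Only the intervals of *HSPG2*, *LAMA2* and *ITGAV* leave out 0, none of which passed after adjustment over all tested genes; black crosses mark the 8 genes on the chromosome of *WAC* with hypomelanistic 1 left out, where each lies to the left of the value with all 6 embryos.

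Among the matrix proteins, *HSPG2* (NW_026844113.1, 792635 to 881279, minus strand, CU assembly) had 269.7, 269.9 and 307.5 CPM in hypomelanistic embryos 1, 2 and 3, against 228.4, 227.4 and 253.1 CPM in wild-type embryos 1, 2 and 3. Every hypomelanistic embryo lay above every wild-type embryo, with hypomelanistic 3 the highest. On the log2 scale the difference was 0.26 ± 0.0818 (SE; 95% interval 0.065 to 0.45), and the adjusted p was 0.828 by edgeR and 0.547 by DESeq2. *NID1*, whose product bridges laminin and type IV collagen, had 204, 243 and 215 CPM in hypomelanistic and 238, 205 and 249 CPM in wild-type embryos. *NID2*, its paralogue, had 150, 147 and 133 CPM in hypomelanistic and 133, 149 and 144 CPM in wild-type embryos and was the gene of the 36 that varied least over the 6 libraries, by 1.13-fold from lowest to highest. Both nidogens overlapped between the groups.

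*LAMA2* (NW_026844038.1, 5365766 to 5809238, plus strand), the α chain of the laminin around muscle fibres and Schwann cells, had 29.5, 37.4 and 32.6 CPM in hypomelanistic embryos, against 40.4, 57.3 and 42.2 CPM in wild-type embryos. The groups did not overlap, and wild-type 2 stood well above the other libraries. On the log2 scale *LAMA2* differed by -0.49 ± 0.153 (SE; 95% interval -0.85 to -0.13), and the adjusted p was 0.828 by edgeR. Without wild-type 2 the log2 fold change was -0.32. Wild-type 2 was also the highest library in the summed CPM of 8 skeletal muscle genes, at 705, 2763 and 1869 in hypomelanistic embryos, against 1999, 3111 and 864 in wild-type embryos. Taken singly, it was the highest library for *ACTA1*, *TNNT3* and *TTN*, but not for *CKM*, *DES*, *MYOD1*, *MYOG* or *PAX7*. It was highest as well in the sum of 5 Schwann cell genes, at 71.4, 68.6 and 74.4 CPM in hypomelanistic and 71.7, 97.8 and 75.9 CPM in wild-type embryos. Neither sum had all wild-type embryos above all hypomelanistic embryos, and the part of either cell type in the values of *LAMA2* was not tested.

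All 7 marker genes of dermal fibroblasts had a log2 fold change below 0, and edgeR called none of them. That of *COL1A1* was only -0.012 ± 0.128 (SE). Of the 36 genes, 19 were likewise below 0 and 17 above. The 7 markers summed to 84141 to 97366 CPM in hypomelanistic and 93312 to 95595 CPM in wild-type embryos, almost all from *COL1A1* and *COL1A2*. Both lie on the chromosome, described below, where hypomelanistic 1 stood apart, though hypomelanistic 1 was the highest library for neither. *DPT*, which encodes dermatopontin, had 249, 341 and 288 CPM in hypomelanistic embryos, against 364, 370.1 and 388 CPM in wild-type embryos, with no overlap and a log2 fold change of -0.35 ± 0.114 (SE). *POSTN*, which encodes periostin, had 442, 603 and 393 CPM in hypomelanistic and 552, 824 and 632 CPM in wild-type embryos, a log2 fold change of -0.48 ± 0.198. Their edgeR adjusted p was 0.828, and the part of fibroblasts in the values of the laminin and integrin genes was not tested.

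The other laminin α chains showed no such separation. *LAMA1*, the chain of the earliest embryonic laminin, had 24.8, 29.3 and 33.5 CPM in hypomelanistic and 29.9, 42.1 and 35.1 CPM in wild-type embryos, a log2 fold change of -0.29 ± 0.153 (SE) with overlapping groups, which was -0.15 without wild-type 2 and -0.18 without hypomelanistic 1. *LAMA4*, the chain of vessel laminin, had 203, 194 and 179 CPM in hypomelanistic and 194, 224 and 217 CPM in wild-type embryos, a log2 fold change of -0.14 ± 0.0811, or -0.09 without hypomelanistic 3. The groups of *LAMA4* overlapped only because hypomelanistic 1 exceeded wild-type 1. The 7 endothelial marker genes summed to 231, 238 and 232 CPM in hypomelanistic and 215, 235 and 236 CPM in wild-type embryos. Among them, *EGFL7* was higher (log2 fold change 0.23) and *KDR* lower (-0.25) in every hypomelanistic embryo than in every wild-type embryo. The groups of the others overlapped, and edgeR called none of the 7. The sum of 4 mural and smooth muscle genes was 130, 132 and 127 CPM in hypomelanistic and 142, 149 and 158 CPM in wild-type embryos, which did not overlap, though edgeR called none of the 4. *CNN1* (log2 fold change -0.45 ± 0.0993, SE) and *ACTA2* (-0.42 ± 0.140) had groups that did not overlap. The DESeq2 adjusted p of *CNN1* was 0.0570. The groups of *PDGFRB* (-0.08) and *TAGLN* (-0.09) overlapped. The part of mural and smooth muscle cells in the values of *LAMA4* was not tested. *LAMA5*, the α chain found in most basement membranes after the earliest stages, had 154, 181 and 168 CPM in hypomelanistic and 163, 156 and 158 CPM in wild-type embryos.

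Of the β chains, *LAMB2* had 66.3, 77.8 and 65.2 CPM in hypomelanistic and 61.0, 65.6 and 55.8 CPM in wild-type embryos. Only wild-type 2 reached into the range of the hypomelanistic embryos, just above hypomelanistic 3, and the log2 fold change was 0.20 ± 0.0946 (SE), or 0.11 without hypomelanistic 2. The row LAMB1-like (LOC117673969), which lies beside *LAMB2* on NW_026844106.1, had 30.7, 50.0 and 33.9 CPM in hypomelanistic embryos, against 18.5, 28.9 and 26.5 CPM in wild-type embryos. Its groups did not overlap. The log2 fold change was 0.63 ± 0.226 (SE), or 0.39 without hypomelanistic 2, and the adjusted p was 0.828 by edgeR and 0.458 by DESeq2. *LAMB4* overlapped between the groups, at 71.0 ± 10.5 CPM in hypomelanistic and 72.4 ± 9.73 CPM in wild-type embryos (SD, n = 3 each).

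Among γ chains, *LAMC1*, which most laminins contain, had 258, 228 and 231 CPM in hypomelanistic and 212, 256 and 254 CPM in wild-type embryos. *LAMC3* had 56.4, 45.3 and 49.8 CPM in hypomelanistic and 47.6, 63.2 and 71.9 CPM in wild-type embryos, a log2 fold change of -0.27 ± 0.155 (SE), which was -0.13 without wild-type 3 and -0.42 without wild-type 1. The lowest wild-type embryo lay inside the range of the hypomelanistic embryos for *LAMC3* and below it for *LAMC1*.

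None of the hemidesmosome genes given here was separated by genotype. *LAMA3* had 68.8, 73.3 and 71.1 CPM in hypomelanistic embryos, against 63.0, 74.8 and 75.3 CPM in wild-type embryos. *LAMB3*, the β chain of this laminin, had 38.1, 55.7 and 46.3 CPM in hypomelanistic embryos, against 55.2, 54.4 and 53.3 CPM in wild-type embryos. Hypomelanistic 1 and 3 lay below all wild-type embryos in *LAMB3* and hypomelanistic 2 lay above them, and the log2 fold change was -0.22 ± 0.129 (SE), or -0.09 without hypomelanistic 1 and -0.36 without hypomelanistic 2. *ITGA6*, the α subunit of the hemidesmosome, had 95.6, 106 and 98.6 CPM in hypomelanistic and 94.97, 95.01 and 122 CPM in wild-type embryos. The markers of basal keratinocytes found in the table, *COL17A1* and *TP63*, summed to 1747, 1848 and 1622 CPM in hypomelanistic embryos, against 1723, 1681 and 1790 CPM in wild-type embryos. Nearly all of that sum was *COL17A1*. *TP63*, the transcription factor of basal keratinocytes, had 81.5, 68.72 and 71.5 CPM in hypomelanistic embryos, against 57.8, 54.3 and 68.74 CPM in wild-type embryos, a log2 fold change of 0.29 ± 0.108 (SE) with an edgeR adjusted p of 0.828. The groups of *TP63* overlapped only because wild-type 3 lay just above hypomelanistic 2, and the part of basal keratinocytes in the values of the hemidesmosome genes was not tested.

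*ITGB4*, the β subunit of the hemidesmosome, had 269, 264 and 213 CPM in hypomelanistic and 234, 247 and 244 CPM in wild-type embryos, and its value is uncertain. The row ITGB4-like (LOC132710983) lies on another scaffold and took almost the same counts in every library, so that *ITGB4* held between 48.9% and 50.2% of the counts of the pair. Summed, the pair had 538, 526 and 435 CPM in hypomelanistic and 467, 501 and 498 CPM in wild-type embryos, with a log2 fold change of 0.033 ± 0.0961 (SE) and an edgeR adjusted p of 0.960. The summed pair would stand at 51.4 to 63.6 CPM per kilobase, between *ITGB1* and *NID1* in the order of levels. This sum was added after the data were seen.

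Among the integrin α subunits, *ITGAV* (NW_026844021.1, 124387378 to 124462511, plus strand), whose product pairs with several β subunits and binds fibronectin and vitronectin, had 28.7, 32.9 and 33.6 CPM in hypomelanistic embryos, against 35.4, 38.4 and 40.7 CPM in wild-type embryos. Every hypomelanistic embryo lay below every wild-type embryo. On the log2 scale *ITGAV* differed by -0.27 ± 0.0905 (SE), and the adjusted p was 0.828 by edgeR and 0.799 by DESeq2. *ITGA5*, the α subunit of the main fibronectin receptor, had 38.96, 35.7 and 35.1 CPM in hypomelanistic embryos, against 35.0, 33.9 and 33.3 CPM in wild-type embryos. The groups of *ITGA5* did not overlap, though hypomelanistic 3 and wild-type 1 were almost level, and the log2 fold change was 0.10 ± 0.0708, or 0.06 without hypomelanistic 1.

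*ITGA4*, a fibronectin receptor subunit carried by leucocytes and neural crest cells, had 12.2, 17.6 and 19.3 CPM in hypomelanistic embryos, against 22.5, 18.03 and 20.7 CPM in wild-type embryos. Hypomelanistic 1 was far below the rest and the groups overlapped, with a log2 fold change of -0.32 ± 0.177 (SE), which was -0.14 without that library. *ITGA10*, a collagen receptor subunit of cartilage, had 3.67, 3.05 and 3.11 CPM in hypomelanistic and 5.33, 6.07 and 2.72 CPM in wild-type embryos, where the last value lay below all hypomelanistic ones. *ITGB6*, an epithelial partner of *ITGAV*, had 25.5, 21.1 and 36.8 CPM in hypomelanistic and 36.2, 33.5 and 31.9 CPM in wild-type embryos. Its groups overlapped because hypomelanistic 3 had the highest value of all 6. The other genes outside the chromosome described next (*ITGA1*, *ITGA2*, *ITGA7*, *ITGA11*, *ITGB2*, *ITGB5* and *ITGB7*) overlapped between the groups, and their log2 fold changes lay between -0.19 for *ITGB2* and 0.15 for *ITGA7*, the laminin receptor subunit of muscle. Without wild-type 2 that of *ITGB2* was -0.02, and without hypomelanistic 2 that of *ITGA7* was 0.07.

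**Figure D3:**
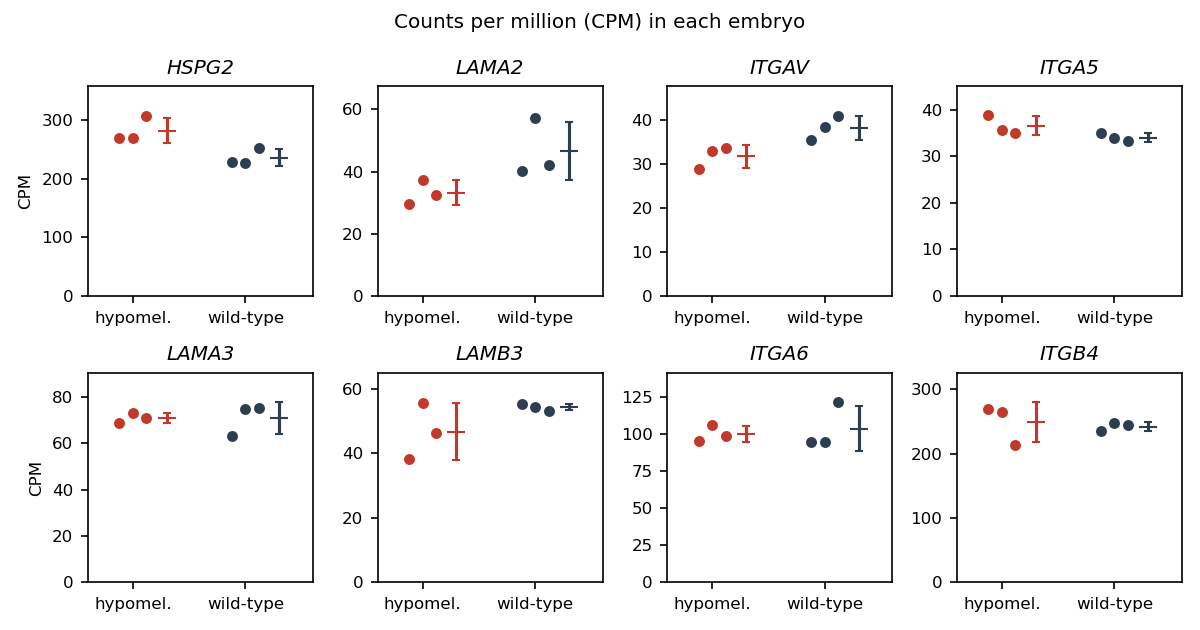
CPM of 8 genes in each embryo, hypomelanistic at the left and wild-type at the right of each panel, with the mean and SD of each group of 3 beside its points; each axis starts at 0. The groups are apart for *HSPG2*, *LAMA2* and *ITGAV*, barely apart for *ITGA5*, and overlap for the hemidesmosome genes *LAMA3*, *LAMB3*, *ITGA6* and *ITGB4*, the last with an uncertain value.

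Hypomelanistic 1 departed from the other libraries in one direction in 8 genes that share a chromosome. *ITGB1*, *ITGA8*, *ITGB8* and *ITGA9* lie on 1 scaffold, which also carries *WAC*. *ITGA3*, *ITGB3* and *ITGA2B* lie on another, and *ITGAL* on a further one. The annotation of a newer assembly places all of them on the same chromosome as *WAC* and *CTNNB1*, and *WAC* is known as a Z-linked gene of snakes. In hypomelanistic 1, the 8 genes lay above the median of the other 5 libraries, by a median of 0.58 on the log2 scale, and for 6 of the 8 hypomelanistic 1 was the highest library. The 28 genes on other chromosomes had a median of -0.06 in this library, which was the highest for 4 of them.

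The shift was not particular to these genes. Over the 1386 other tested genes of that chromosome, hypomelanistic 1 lay above the median of the other libraries by a median of 0.63 on the log2 scale and was the highest library for 71.8%. Over 14121 genes on other chromosomes the median was -0.03, and hypomelanistic 1 was the highest for 18.01%. No other library departed from the rest on that chromosome, with medians between -0.04 and -0.0049. The paper names the sex of the embryos as the main factor that set these samples apart in its principal component analysis. The labels give no sex for any library, and why hypomelanistic 1 stood apart was not tested.

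**Figure D4:**
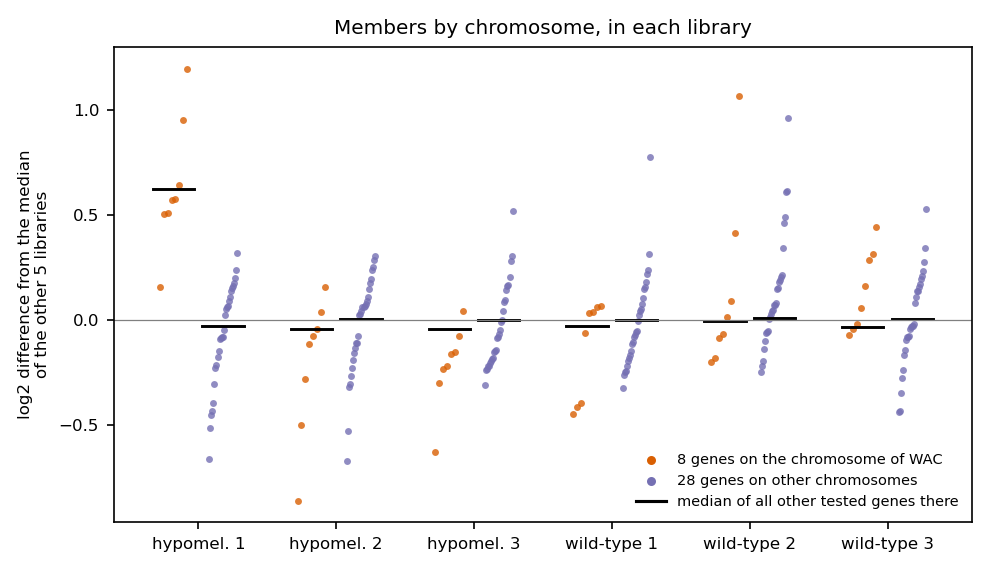
Log2 difference of each gene from the median of the other 5 libraries, in each library, for the 8 genes on the chromosome of *WAC* (orange, left of each pair) and the 28 genes on other chromosomes (violet, right). Black bars give the median of all other tested genes of the same chromosomes. In hypomelanistic 1 all 8 lie above 0 around a bar at 0.63, and in the other libraries both bars lie near 0.

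The comparison of *ITGB1* turned on this library. It had 457, 303 and 273 CPM in hypomelanistic embryos, against 307, 327 and 320 CPM in wild-type embryos, and its log2 fold change was 0.12 ± 0.182 (SE). Without hypomelanistic 1 it was -0.14, with both remaining hypomelanistic embryos below all 3 wild-type embryos and an edgeR adjusted p of 0.835. *ITGA9*, a tenascin receptor subunit, had 21.9, 10.9 and 10.2 CPM in hypomelanistic and 11.8, 11.3 and 12.6 CPM in wild-type embryos, and its log2 fold change of 0.26 became -0.18 without that embryo. *ITGA2B* had 10.8, 3.93 and 4.30 CPM in hypomelanistic and 4.84, 4.77 and 4.72 CPM in wild-type embryos, and its log2 fold change of 0.41 became -0.21. For *ITGA9*, *ITGA2B*, *ITGB3* and *ITGAL* too, both remaining hypomelanistic embryos lay below all wild-type embryos. For *ITGA3*, *ITGA8* and *ITGB8* they did not. The share of all tested genes that separate in this way without hypomelanistic 1 was not computed, so nothing is concluded from it. The 4 thrombocyte genes summed to 53.9, 62.7 and 63.3 CPM in hypomelanistic and 88.3, 43.9 and 53.1 CPM in wild-type embryos, mostly from *VWF* and *TUBB1*. Both of these were highest in wild-type 1. *GP1BB*, a subunit of the von Willebrand factor receptor of platelets in mammals, had 5.04, 2.08 and 1.98 CPM in hypomelanistic and 4.64, 4.94 and 3.14 CPM in wild-type embryos. Hypomelanistic 1 was its highest library, as for *ITGA2B*, but lay close to wild-type 1 and 2. The log2 fold change of *GP1BB* was -0.48. Without hypomelanistic 1 it was -1.06, beside -0.08 for *VWF*, 0.26 for *TUBB1* and 0.08 for *GP1BA*. With all 6 embryos, edgeR called none of the 4 thrombocyte genes. The part of thrombocytes in the values of *ITGA2B* was not tested.

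Of the remaining 5 genes there, *ITGA3*, a laminin receptor subunit of the epidermis, had 36.4, 26.3 and 24.99 CPM in hypomelanistic and 26.3, 24.8 and 25.6 CPM in wild-type embryos. Its log2 fold change was 0.19, and 0.0051 without hypomelanistic 1. *ITGA8* and *ITGB8* had log2 fold changes of 0.27 and 0.27, which became 0.06 and 0.06. *ITGB3* and *ITGAL* were lower in hypomelanistic embryos with and without hypomelanistic 1, at log2 fold changes of -0.54 and -0.31 with it and -0.86 and -0.49 without it. *ITGB3* had only 1.31, 0.692 and 0.812 CPM in hypomelanistic and 0.922, 1.94 and 1.26 CPM in wild-type embryos, and varied most of the 36 genes, by 2.80-fold from lowest to highest. Without wild-type 2, its log2 fold change was -0.21 and that of *ITGAL* -0.18.

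The balance between β1 and its partners moved with the same library. The 12 α subunits known to pair with β1 summed to 0.660, 0.979 and 1.01 times the level of *ITGB1* per kilobase in hypomelanistic embryos 1, 2 and 3, against 0.917, 0.896 and 0.955 times in wild-type embryos 1, 2 and 3. Hypomelanistic 1 was the lowest of all and the other hypomelanistic embryos the highest, so the groups overlapped. Some of these α subunits also pair with other β subunits, and transcript levels do not give the number of receptors.

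The other genes of the basement membrane and of the integrin adhesion site, such as type IV collagens, agrin, talins, kindlins and dystrophin, were taken from a list of 57, of which 54 were in the table and tested. Neither edgeR nor DESeq2 called any of the 54. By edgeR 2 had an unadjusted p under 0.05 (DESeq2 counted 3 and limma-voom 2), beside 5.63% of all tested genes, while 21 of the 54 were higher and 33 lower, with a median log2 fold change of -0.04, beside 0.0038 over all tested genes. The groups did not overlap for 6 of the 54, of which 4 were higher and 2 lower, beside 12.2% of all tested genes. Neither share stood above the background. *TLN2*, a talin that links integrin β subunits to actin, had 73.5, 91.1 and 75.4 CPM in hypomelanistic embryos, against 63.5, 66.5 and 63.2 CPM in wild-type embryos, with no overlap. On the log2 scale *TLN2* differed by 0.31 ± 0.0914 (SE), and the adjusted p was 0.828 by edgeR and 0.458 by DESeq2. *SMOC1*, a calcium-binding matrix protein, had 5.25, 5.88 and 5.50 CPM in hypomelanistic embryos, against 6.23, 8.48 and 6.84 CPM in wild-type embryos, a log2 fold change of -0.37 ± 0.152, or -0.24 without wild-type 2. The next 3 by p were *TLN1* (0.17), *CD151* (0.24), a membrane protein that associates with laminin-binding integrins, and *AGRN* (0.18). Each had a positive log2 fold change, and none passed the test. Without wild-type 2 that of *AGRN* was 0.10 and that of *CD151* 0.17. Without wild-type 3 that of *CD151* was 0.37.

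The rows with the ending "-like" other than those of *ITGB4* and *LAMB1* held few counts. Of 11 such rows, 6 were tested and none passed. ITGB5-like (LOC132709816) had 6.18, 6.32 and 6.12 CPM in hypomelanistic and 7.52, 6.48 and 6.43 CPM in wild-type embryos, with groups that did not overlap and a log2 fold change of -0.13 ± 0.122 (SE), or -0.06 without wild-type 1. With only 630 bases of exon, this row averaged 10.3 CPM per kilobase, near *LAMB2* in level. Its relation to *ITGB5* was not tested. The 4 rows called ITGAX-like each averaged under 3 CPM in both groups, and ITGAV-like and ITGA2-like held no count in any library. The sources used here do not say whether reads were counted by strand, and genes that overlap another row are less certain, such as *ITGA1* (with *PELO*, at 17.4 CPM on average, on the same strand).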

How the data were processed

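Poly(A) RNA of dorsal skin from 6 embryos was sequenced from stranded libraries. As the submitters' processing notes and the methods state, STAR 2.7.10b placed the read pairs on the CU assembly, and featureCounts of Subread 2.0.6 counted the pairs that mapped uniquely. The authors deposited the read counts of each gene as they are, not normalized, and the exon length of each gene. Coordinates are those of the table.

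Of 25735 lines, 4 were broken, and their 2 genes (*DST* and *MACF1*) were left out. Genotypes were compared with the edgeR 4.0.16 quasi-likelihood test in R 4.3.3, with TMM factors and filterByExpr, on all 17025 genes kept. The biological coefficient of variation was 0.170 (prior degrees of freedom 3.24). Benjamini-Hochberg adjustment ran over all tested genes, with a threshold of 0.05. CPM are counts per 1000000 counts of the TMM-scaled library. Levels between genes are these CPM per kilobase of exon, used in place of the planned TPM, because 25 ribosomal RNA rows took up 8.96% to 11.5% of a hypomelanistic library and 6.30% to 7.89% of a wild-type library; the order of genes within a library is the same. Differences of a library from the median of the other 5 used log2 CPM without a prior count, for tested genes with counts in every library. The principal component named below used log2 CPM with a prior count of 2. Alternatives were DESeq2 1.42.0 (the test of the study), voom of limma 3.58.1, other size factors, no filter, ribosomal RNA left out, the replicate number as a block, the first principal component of 500 genes as a covariate, and each library left out. The edgeR test was checked on simulated counts. These held no shift of a whole chromosome in any library, so the check does not cover the shift of hypomelanistic 1.

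The genes and lists were chosen with earlier results of these data known. Values in every library are given for the 12 of the 36 genes with the smallest p, for a fixed set of epidermal and widespread chains, and for the 2 linked genes with the smallest p (the next 3 have their fold change only). The genes on the chromosome of *WAC* were singled out after their values were seen. Of the 36, 1 gene is counted in the totals and not reported here by itself. The newer assembly (ASM5975653v1, *Pantherophis guttatus* Tessera) served only for which genes share a chromosome, and it placed all 36. No 2 libraries were duplicates: chi-square over degrees of freedom was 21.9 to 71.8 between them.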

Additional observations from a re-analysis of the deposited data

How the results depend on the processing

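None of the 36 genes passed 0.05 under any of the 14 alternatives, nor did any of the 54 linked genes under the 13 that apply to them, while all genes past 0.05 numbered 4 by edgeR, 85 by DESeq2, 10 without hypomelanistic 1, 2 without wild-type 2, 2 without wild-type 3 and 1 with the replicate number as a block. The numbers do not pair the embryos: the same-numbered correlations were -0.084, 0.113 and -0.0059, and not every library correlated best with its own number. With the replicate block, 0 of the 36 genes passed and *LAMA3* had a log2 fold change of 0.0039. The median log2 fold change of the 36 genes was -0.0654 with the first principal component, on which hypomelanistic 1 lies at 1.97 and the other libraries between -0.674 and 0.0951, as a covariate, against -0.00491 without it. With that covariate the direction turned for *ITGA2B* (-0.182), *ITGA9* (-0.159), *ITGB1* (-0.123), *ITGB4* (-0.0152), *NID2* (-0.0182), *LAMB4* (0.0405) and *LAMA3* (0.00972). *LAMA3*, at about 0 in all, also turned with DESeq2 (0.00272), voom (0.00473), no filter (0.00221), ribosomal RNA left out (0.000454) and the size factors of DESeq2 (0.00237). Leaving out 1 library turned the direction of 11 genes, with log2 fold changes from -0.21 to 0.66 for *ITGA2B*, -0.11 to 0.0772 for *ITGA6*, -0.18 to 0.46 for *ITGA9*, -0.14 to 0.26 for *ITGB1*, -0.0211 to 0.14 for *ITGB4*, -0.0298 to 0.0893 for *ITGB5*, -0.11 to 0.30 for *ITGB7*, -0.0789 to 0.0460 for *LAMA3*, -0.15 to 0.0518 for *LAMB4*, -0.0920 to 0.0363 for *LAMC1* and -0.0322 to 0.0640 for *NID2*. The cause was not tested. The other 25 genes kept their direction under every alternative. Summing *ITGB4* with the row ITGB4-like, added after the data were seen, changed no call. With 3 embryos a group, the p-values set the difference between the groups against the spread between siblings of 1 clutch. Differences of any size inside the intervals above remain compatible with these data, so a gene that did not pass may still differ.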
